A study of Rattus norvegicus with 30 samples.

Results

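MicroRNAs (miRNAs) in urinary exosomes were compared between rats with renal ischemia/reperfusion injury (IRI) and sham-operated rats 2 days after surgery. The comparison took all 86 miRNAs of the day 2 table, of 122 miRNAs listed in any of the 5 daily tables, and 6 of the 30 libraries of the series. The animals were male Sprague-Dawley rats with no genetic alteration in the labels. In the IRI group (rats 1, 2 and 13) both renal pedicles were clamped and released, and in the sham group (rats 3, 6 and 9) the same surgery was done without clamping. Each library came from 1 rat, so n = 3 for each group, and the same rats were sampled at days 1, 3, 7 and 14. Small RNA was taken from a urine collection of several hours with an exosome RNA kit and sequenced as miRNA libraries. The urine holds exosomes from every cell that sheds into the urinary tract, so fewer vesicles of a cell type and fewer copies per vesicle cannot be told apart.

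A miRNA guides the Argonaute protein to messenger RNAs, mostly through its seed, bases 2 to 8 from the 5′ end, and lowers the stability or translation of its targets. miRNAs with the same seed are grouped as a family and share many predicted targets. Exosomes carry a selection of the miRNAs of the cell that released them, and those in urine come largely from the epithelium that lines the nephron and the lower tract. Clamping the renal pedicles followed by reperfusion injures mainly the proximal tubule, whose cells die, shed and are then replaced.

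The miRNAs on which the comparison turns are given first by sequence, with the seed in capitals, as RefSeq gives them for rat assembly GRCr8, since sequence decides both the family of a miRNA and which neighbours its reads could be confused with. The first line is the miRNA that was higher in IRI, and the second a family member with the same seed.
miR-181b-5p: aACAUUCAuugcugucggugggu
miR-181a-5p: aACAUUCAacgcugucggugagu
The next lines are the miRNAs whose 3 IRI values all lay below the 3 sham values and that have an entry in the sequence table.
miR-378a-3p: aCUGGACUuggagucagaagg
let-7g-5p: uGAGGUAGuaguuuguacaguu
let-7b-5p: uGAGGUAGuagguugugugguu
miR-28-3p: cACUAGAUugugagcuccugga
miR-29c-3p: uAGCACCAuuugaaaucgguua
miR-22-3p: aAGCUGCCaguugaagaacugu
miR-140-3p: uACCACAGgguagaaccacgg
miR-182: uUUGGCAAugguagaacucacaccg
The last lines are the other members of the miR-29 family.
miR-29b-3p: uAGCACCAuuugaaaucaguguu
miR-29a-3p: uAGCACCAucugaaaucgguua

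In GRCr8 the mature miR-181b-5p lies at chr13:52037263-52037285 on the plus strand and miR-181a-5p at chr13:52037081-52037103 on the same strand, with a further copy of miR-181a-5p on chromosome 3. The mature miR-378a-3p lies at chr18:57128925-57128945 on the minus strand. miR-29c-3p lies at chr13:109099412-109099433 beside 1 copy of miR-29b-3p at chr13:109098882-109098904, and miR-29a-3p lies at chr4:60617968-60617989 beside the other copy. The deposited tables give names and no positions, and the reads were aligned to an older rat build. miR-181a-5p and miR-181b-5p differ at 3 of 23 bases, miR-29b-3p and miR-29c-3p at 3 of 22, and miR-29a-3p and miR-29c-3p at 1 of 22. let-7b-5p and let-7c-5p also differ at 1 of 22 bases, as do let-7a-5p and let-7f-5p. How reads that match more than 1 member were assigned is not given in the sources used here, so the split within the let-7, miR-29 and miR-181 families is uncertain.

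The values are counts that were scaled by the authors to roughly CPM size. All low values of a library (up to 20 reads) were whole multiples of a step, within 0.1 of a read, and that step is the worth of 1 read. The libraries were shallow. They held 3838, 1122 and 10542 reads over the 86 miRNAs in IRI rats 1, 2 and 13, and 696, 1717 and 1955 in sham rats 3, 6 and 9. One read was worth from 105 (IRI rat 13) to 1308 (sham rat 3), so a value of 0 still allows up to 316 in IRI rat 13 and 3924 in sham rat 3 (3 reads, counting error only). IRI rats 1 and 2 were sequenced in lane 2, sham rats 3 and 6 in lane 3, and IRI rat 13 and sham rat 9 in lane 4, which was the only lane with both groups. Every listed miRNA was above 0 in at least 3 of the 6 libraries, 56 in at least 5 and 41 in all 6. Of the markers of other sources, both endothelial, all 4 muscle and the liver miRNA were not among the 86. Of 5 mesenchymal miRNAs 1 was (miR-199a-3p), and of 5 neural and neuroendocrine miRNAs 2 were (miR-9a-5p and miR-375-3p). All 7 epithelial miRNAs (the miR-200 family, miR-205 and miR-203a-3p) were among the 86.

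miR-181b-5p, a member of a family studied in lymphocyte development and vascular inflammation, was the only miRNA that rose or fell past the threshold. It was at 4316, 7942 and 6318 in IRI rats 1, 2 and 13, from 18, 12 and 60 reads, and at 0 in each of the 3 sham rats. The groups did not overlap, and all 3 IRI libraries were high. Set against the 3 reads that a value of 0 allows, averaged over the sham libraries, miR-181b-5p was at least 2.44-fold higher in IRI. The difference in log2(scaled count + 500) was 3.705 (standard error 0.56, 95% interval 2.43 to 4.98, limma, adjusted p = 0.00884 over the 86 miRNAs). Differences are given on this log2 scale throughout. The size, interval and p-value of this difference depend on the constant of 500 because sham was at 0. The difference was 6.92 with 50 added and 2.01 with 2000 added. The 3 sham values had an SD of 0, so the standard error does not carry the counting error of those values. miR-181b-5p was the only one of the 86 miRNAs, 1.16%, called at an adjusted p under 0.05. It was also the only miRNA at 0 in a whole group, and its 3 IRI libraries alone brought it into the table. Without IRI rat 13, sham rat 3 or sham rat 6 its adjusted p became 0.0511, 0.0545 and 0.0609, and with lane as a term in the fit it became 0.272. With lane in the fit the difference was 3.77, which rests on IRI rat 13 and sham rat 9, from the only lane with both groups. Leaving out a sham rat cannot move the difference, since all sham values were 0, and it stayed at 3.705. Leaving out an IRI rat gave 3.52 to 3.92. These refits therefore do not test the sham side of the difference.

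The other listed member of the family with the seed ACAUUCA did not move with it. miR-181a-5p, best known for setting the T cell receptor threshold, was at 1918, 17208 and 7792 in IRI and at 10463, 7596 and 4116 in sham. Its 2 groups overlapped fully, with the highest and the lowest value both in IRI, and the difference was -0.07 (standard error 0.81, adjusted p = 0.968). The difference between the 2 family members was not tested. miR-93-5p, encoded with miR-25 in an intron of Mcm7 and sharing the seed of miR-17, was the only other miRNA that leaned upward at an unadjusted p under 0.05. It was at 2398, 9266 and 3370 in IRI and at 0, 3255 and 0 in sham. Sham rat 6 lay inside the IRI range, and the difference of 2.29 (standard error 0.91) had an adjusted p of 0.363. In all, 2 of the 86 miRNAs (2.33%) were higher in IRI at an unadjusted p under 0.05, and 1 (1.16%) had 3 IRI values above all 3 sham values.

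More miRNAs leaned downward. There were 7 of 86 (8.14%) lower in IRI at an unadjusted p under 0.05 and 10 of 86 (11.6%) whose 3 IRI values all lay below the 3 sham values, but none of them passed the adjusted threshold. Over all 86 miRNAs the differences were balanced, with 45 above 0, 41 below 0 and a median of 0.11. The count of 10 against 1 depends on how libraries are scaled: it was 7 against 3 with each library recentred on its median, and 6 against 7 with all library totals made equal. Leaving out a rat leaves 2 against 3 libraries, which separate more easily than 3 against 3. The counts that follow are therefore not on the same footing as 10 against 1, and their rise is not credited to single rats. The count was 11 against 10 without IRI rat 2, 12 against 9 without sham rat 6 and 14 against 8 without IRI rat 1. The split was more uneven without the other rats. The count was 13 against 3 without IRI rat 13, 16 against 4 without sham rat 3 and 15 against 7 without sham rat 9. let-7b-5p, let-7g-5p, miR-28-3p, miR-29c-3p, miR-328a-3p and miR-378a-3p were below sham without overlap under all 3 scalings. miR-140-3p, miR-151-3p and miR-182 overlapped under both other scalings, and miR-22-3p overlapped with equal totals.

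**Figure D1:**
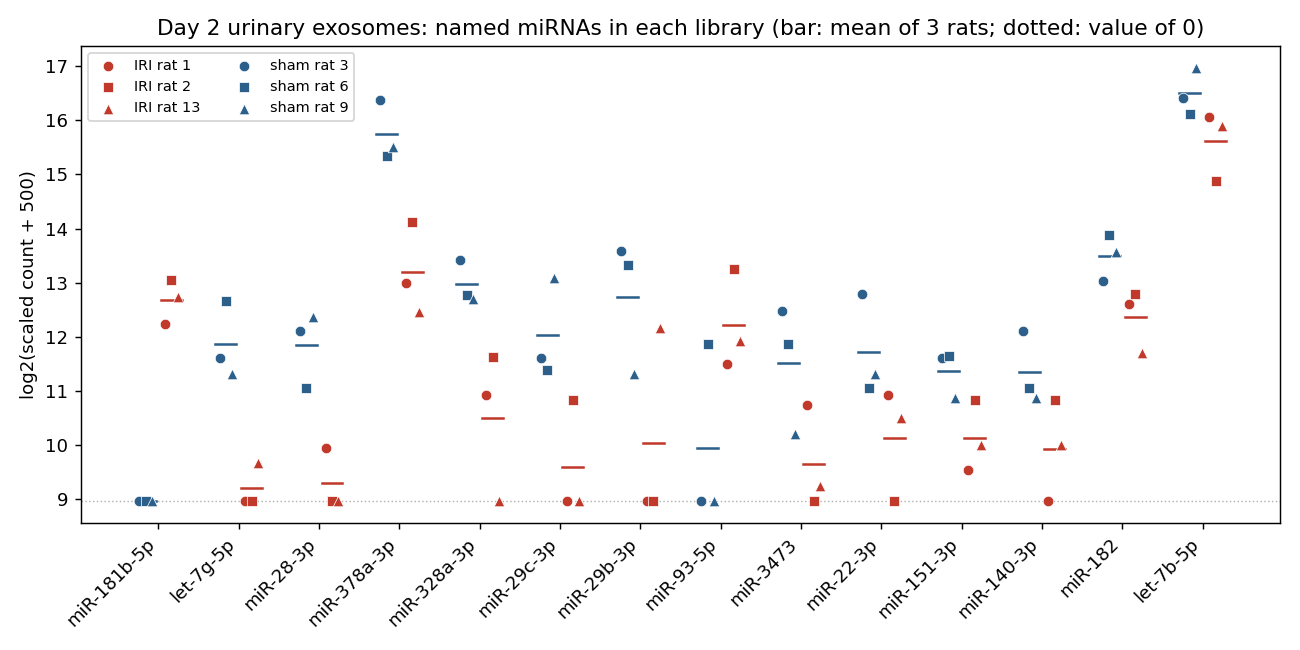
Each point is 1 library at day 2, with the scaled count on a log2 scale (500 added) for the 14 miRNAs that had an unadjusted p under 0.05 or groups that did not overlap; red is IRI, blue is sham, bars are means of 3 rats and the dotted line is a value of 0. miR-181b-5p had 3 sham values at 0, and miR-378a-3p was the most abundant miRNA with 3 IRI values below the range of sham, other than let-7b-5p.

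miR-378a-3p, which lies in an intron of the PGC-1β gene in mouse and human and takes part in the control of mitochondrial metabolism, was the abundant miRNA with the widest separation. It was at 7673, 17208 and 5160 in IRI and at 85012, 41234 and 45965 in sham. The highest IRI value was below the lowest sham value by more than 2-fold. The means were 10014 ± 6356 (SD, n = 3) in IRI and 57404 ± 24026 (SD, n = 3) in sham, a ratio of 5.73 of sham over IRI. These values rest on 32, 26 and 49 reads in IRI and 65, 76 and 67 in sham. As a share of listed reads it made up 0.834%, 2.32% and 0.465% in IRI and 9.34%, 4.43% and 3.43% in sham, and no 95% Wilson interval of an IRI library reached one of a sham library except that of IRI rat 2, which ran to 3.37% while that of sham rat 9 began at 2.71%. The difference was -2.55 (standard error 0.67, 95% interval -4.06 to -1.05, limma, adjusted p = 0.0863). It passed the threshold in 3 of 15 alternatives, with adjusted p-values from 0.0231 to 0.336. The related miR-378b was at 0, 1986 and 0 in IRI and 0, 3798 and 1372 in sham, from 3 and 9 reads in all.

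The rare let-7g-5p, miR-28-3p and miR-29c-3p had 2 or 3 reads in the IRI libraries together and were present in all sham libraries. let-7g-5p, of the family that holds back Lin28 and Hmga2 in differentiated cells, was at 0, 0 and 316 in IRI and at 2616, 5968 and 2058 in sham. It was seen in 3 reads of the IRI libraries together, so its fold is given as a ratio of pooled read shares, 19.9 of sham over IRI (95% counting interval 5.70 to 107, exact), beside a ratio of group means of 33.7. The pooled ratio is weighted by the deepest library, IRI rat 13. The difference was -2.66 (standard error 0.62, adjusted p = 0.0863). miR-28-3p, which lies in an intron of LPP in human, was at 480, 0 and 0 in IRI and at 3924, 1628 and 4802 in sham. Its pooled ratio from 2 IRI reads was 24.3 (5.49 to 222), beside 21.6 from the group means, and its difference -2.56 (standard error 0.64, adjusted p = 0.0863). The 0 in IRI rat 2 allows up to 1986, above the value of sham rat 6, so this pair of libraries is not told apart by counting. miR-328a-3p, better covered in IRI, was at 1439, 2647 and 0 in IRI and at 10463, 6511 and 6174 in sham, with means of 1362 ± 1325 and 7716 ± 2385 (SD, n = 3 each), a ratio of 5.67 and a difference of -2.46 (standard error 0.77, adjusted p = 0.165). IRI rat 13, the deepest library, had none.

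miR-29c-3p was at 0, 1324 and 0 in IRI and at 2616, 2170 and 8233 in sham. The miR-29 family represses collagens and other matrix proteins and is known for its loss in fibrotic tissue. The pooled ratio of miR-29c-3p from 2 IRI reads was 33.6 (8.05 to 299), while its group means differed 9.83-fold, and IRI rat 13 had none of its reads. Its difference was -2.44 (standard error 0.77, adjusted p = 0.165). miR-29b-3p was at 0, 0 and 4107 in IRI and at 11771, 9766 and 2058 in sham. IRI rat 13 lay above sham rat 9, both from lane 4, and the difference of -2.71 (standard error 1.01, adjusted p = 0.316) became 0.85 with lane in the fit. miR-29a-3p, with the same seed, was at 2638, 1324 and 2001 in IRI and at 1308, 1085 and 2058 in sham. Its groups overlapped and its difference was 0.32 (standard error 0.58, adjusted p = 0.841). So of the 3 listed members, 2 were lower at an unadjusted p under 0.05 and none passed the adjusted threshold, beside 8.14% lower in all 86.

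The remaining miRNAs whose groups did not overlap were closer to each other. miR-182 is transcribed with miR-183 and miR-96 as a cluster best known from sensory organs. It was at 5755, 6618 and 2843 in IRI and at 7847, 14649 and 11663 in sham, 2.24-fold higher in the sham mean, with a difference of -1.12 (standard error 0.61, adjusted p = 0.502). miR-183-5p was at 4316, 1324 and 0 in IRI and at 5231, 5425 and 3430 in sham. IRI rat 1 was above sham rat 9, and the difference was -1.64 (standard error 0.84, adjusted p = 0.502). miR-96-5p had 8 reads in IRI and 1 in sham and a difference of 0.21.

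let-7b-5p, among the 4 most abundant miRNAs here, was at 68336, 29783 and 60125 in IRI and at 86319, 70531 and 128292 in sham. Its means of 52748 ± 20308 and 95047 ± 29853 (SD, n = 3 each) differed 1.80-fold. IRI rat 1 lay just below sham rat 6, and IRI rat 2 was the lowest. The difference was -0.88 (standard error 0.62, adjusted p = 0.685). miR-22-3p, studied in heart and muscle growth, was at 1439, 0 and 948 against 6539, 1628 and 2058 in sham. miR-140-3p, the cartilage miRNA from an intron of Wwp2, was at 0, 1324 and 526 against 3924, 1628 and 1372. miR-151-3p was at 240, 1324 and 526 against 2616, 2713 and 1372. In all 3 the gap between the groups was less than the worth of 1 read in the libraries on either side of it, and they had an adjusted p of 0.501. miR-3473 was at 1199, 0 and 105 in IRI and at 5231, 3255 and 686 in sham, where sham rat 9 lay inside the IRI range, with an adjusted p of 0.406.

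**Figure D2:**
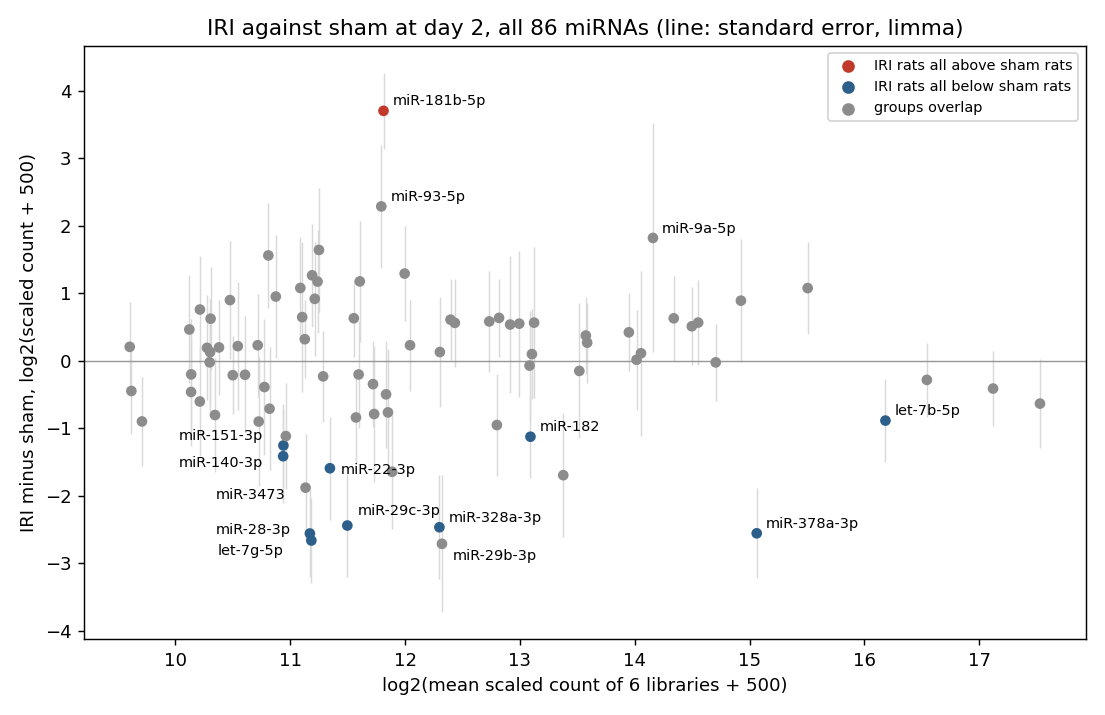
The difference IRI minus sham (log2, 500 added) is plotted against the mean level of each of the 86 miRNAs, with the limma standard error as a line; blue marks the 10 miRNAs with all IRI rats below all sham rats, red miR-181b-5p. The separated miRNAs sat mostly at low levels, while miR-378a-3p at -2.55 and let-7b-5p at -0.88 were among the 10 most abundant.

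The other 72 miRNAs had overlapping groups. Their differences ran from -1.69 (miR-192-5p) to 1.82 (miR-9a-5p), with adjusted p-values from 0.501 to 0.982 and standard errors from 0.54 to 1.696. Their median standard error was 0.78. miR-192-5p and miR-194-5p, enriched in kidney cortex and gut, were both in this set. miR-192-5p was at 6474, 10590 and 526 in IRI and at 22234, 8681 and 12349 in sham, and miR-194-5p was at 0, 3971 and 0 in IRI and 0, 2170 and 1372 in sham. miR-192-5p was lowest in IRI rat 13, while IRI rat 2 lay inside the sham range. miR-21-5p, often linked to kidney injury, was at 46037, 54271 and 78447 in IRI and at 14387, 23330 and 59686 in sham. Sham rat 9 lay inside the IRI range, and the difference was 1.08 (standard error 0.69, adjusted p = 0.639). With equal totals miR-21-5p was among the 7 miRNAs whose IRI values all lay above sham, with miR-16-5p, miR-23b-3p, miR-26b-5p, miR-29a-3p, miR-30d-5p and miR-181b-5p.

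By lists of known kidney and cell type miRNAs, few miRNAs of injured kidney were measured here. Of 14 miRNAs linked to kidney ischemia, 4 were among the 86 (miR-21-5p, miR-24-3p, miR-192-5p and miR-194-5p), none of the 4 was called, 2 had a difference above 0 and their median was 0.35, beside 0.11 in all 86. The hypoxia miRNA miR-210-3p and the inflammatory miR-146a-5p and miR-155-5p were not listed. Of the 7 leukocyte miRNAs, miR-142-3p and miR-342-3p were listed and miR-223-3p and miR-150-5p were not. miR-142-3p was at 3357, 0 and 3054 in IRI and at 1308, 543 and 0 in sham, so IRI rat 2 was at 0 while IRI rats 1 and 13 were above every sham library. The sham values rest on 1, 1 and 0 reads. The 0 in IRI rat 2 allows up to 1986, above every sham value, so that library is not told apart from sham by counting. The summed level of the leukocyte list was 3357, 0 and 3159 in IRI and 1086 to 1372 in sham, and its part in the results was not tested. Of 4 red cell miRNAs, miR-16-5p alone was listed and miR-451-5p, miR-486 and miR-144-3p were not. miR-16-5p was at 26136, 21179 and 32116 in IRI and at 18310, 24957 and 13035 in sham. Of 6 tubule miRNAs 4 were listed, and their summed level ran from 40043 to 75451 in IRI and from 44468 to 56968 in sham.

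The let-7 family dominated the reads of the 86 listed miRNAs and took a smaller share of them in IRI. Shares here and below are of those reads, not of all RNA in the exosomes, so a rise of other miRNAs also lowers them. Its 8 listed members made up 51.0%, 44.4% and 43.2% of the reads in IRI rats 1, 2 and 13, and 55.6%, 55.4% and 61.6% in sham rats 3, 6 and 9. The IRI shares all lay below the sham shares, though the 95% Wilson intervals of IRI rat 1 (49.5% to 52.6%) and sham rat 3 (51.9% to 59.3%) overlapped. Of the 8 members, let-7b-5p and let-7g-5p were lower without overlap (11.6% of all 86 were), and let-7d-5p, let-7e-5p and let-7i-5p had a difference above 0. let-7c-5p, the most abundant miRNA by mean, was at 175277, 89349 and 156473 in IRI and at 151713, 146488 and 412317 in sham. Sham rat 9 was more than 2-fold above every other library, with 30.7% of its reads on let-7c-5p. let-7f-5p was at 102145, 110528 and 156578 against 154329, 164935 and 163280, where IRI rat 13 exceeded sham rat 3. let-7a-5p was at 97349, 76774 and 83607 against 96782, 110680 and 104966, where IRI rat 1 exceeded sham rat 3. let-7b-5p and let-7c-5p differ by a single base, so their split is uncertain.

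Of the other abundant miRNAs, miR-26a-5p was nearly level between the groups. It was at 23019, 34416 and 21060 in IRI and at 20926, 27670 and 30186 in sham, with a difference of -0.02 (standard error 0.57, adjusted p = 0.982). miR-30a-5p, abundant in nephron epithelium, was at 20861, 35740 and 26114 in IRI and at 10463, 28755 and 19209 in sham, a difference of 0.57 (standard error 0.62, adjusted p = 0.790). The 4 listed members of the miR-30 family took 5.45% to 8.20% of the reads in IRI and 3.17% to 5.47% in sham. Only sham rat 6 reached the IRI range.

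The seeds of the separated miRNAs were mixed. Of the 86 miRNAs 75 had a sequence in the RefSeq table, with 54 different seeds, of which 11 were shared by 2 or more miRNAs. The 10 miRNAs below sham without overlap included 8 with a sequence, and these held 7 seeds, since let-7b-5p and let-7g-5p share GAGGUAG. Their median GC content was 46.7% beside 45.5% in the 75. The motif GGAG, described for exosome sorting in T cells, was searched on the miRNA strand and stood in 1 of these 8, miR-378a-3p, and in 8 of the 75 (10.7%). Both miRNAs with the seed ACAGUAC leaned upward and both with the seed AGGUAGU downward, with median differences of 1.23 (miR-101a-3p and miR-101b-3p) and -1.03 (miR-196a-5p and miR-196b-5p), and their groups overlapped.

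The spread between rats of 1 group was as wide as most differences. The SD of log2(scaled count + 500) had a median over the 86 miRNAs of 0.95 in IRI and 0.93 in sham. It was larger in IRI for 44 miRNAs and larger in sham for 42, above 1 for 40 in IRI and 36 in sham, and below 0.5 for 22 and 20. Over the 41 miRNAs above 0 in all 6 libraries the medians were both 0.61. With a constant of 50 the medians were 1.345 in IRI and 1.11 in sham, and with 2000 they were 0.44 and 0.52, so neither group was the more variable at every constant. Leaving out any rat lowered the median of its group, and an SD of 2 values tends to be lower than one of 3. The sham median became 0.47 without sham rat 9, 0.70 without sham rat 3 and 0.88 without sham rat 6. The IRI median became 0.52 without IRI rat 2, 0.69 without IRI rat 13 and 0.76 without IRI rat 1. The variance over the counting variance of the reads, which is 1 where counting error is the only source, had a median of 4.78 in IRI and 1.56 in sham and was above 5 for 41 and 11 miRNAs. This ratio grows with depth, and IRI rats 1 and 13 were deeper than every sham library, so it is not set between the groups.

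**Figure D3:**
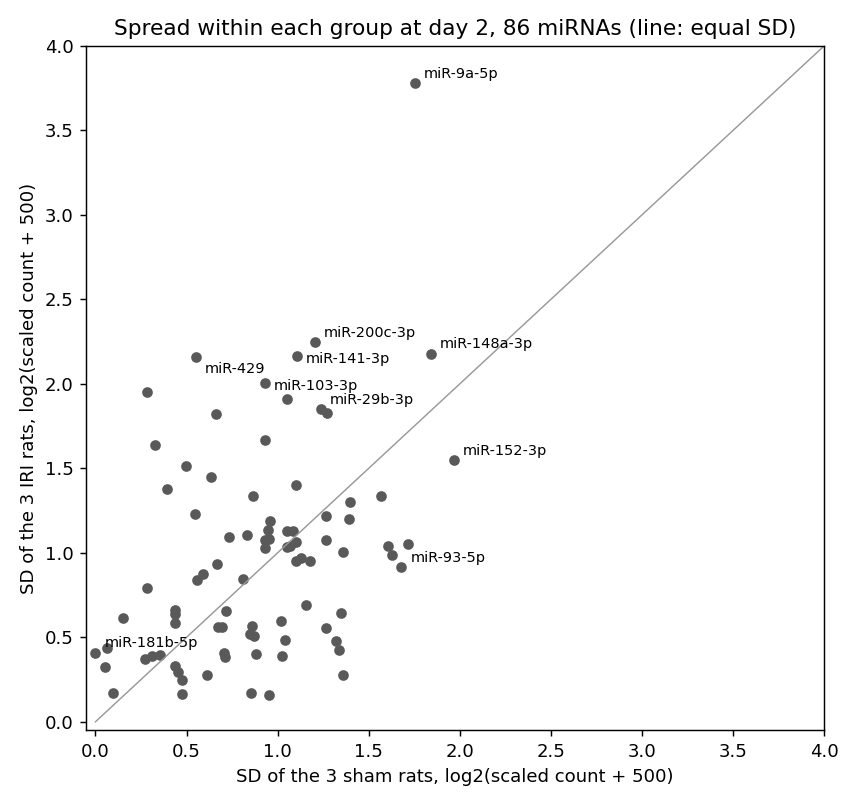
Each point is 1 of the 86 miRNAs, with the SD of 3 sham rats on the x axis and of 3 IRI rats on the y axis (log2 scale, 500 added); the line marks equal SD. Points fell on both sides, 44 above and 42 below, and miR-9a-5p stood apart at 3.78 in IRI.

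miR-9a-5p, best known from neurons and neuroendocrine cells, had the widest spread of all. It was at 0, 5957 and 93820 in IRI and at 0, 4883 and 2058 in sham. IRI rat 13 alone was high, with 891 reads or 8.45% of that library, where miR-9a-5p was the third most abundant miRNA. The difference of 1.82 had a standard error of 1.696 and an adjusted p of 0.785. The other neuroendocrine miRNA listed, miR-375-3p, was at 2638, 2647 and 948 in IRI and at 2616, 543 and 6174 in sham, so IRI rat 13 was not high for it.

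The next widest spreads in IRI belonged to miR-200c-3p (SD 2.25), miR-148a-3p (2.18), miR-141-3p (2.16) and miR-429 (2.16). The miR-200 family represses Zeb1 and Zeb2 and keeps epithelial cells epithelial, and miR-148a with miR-152 targets the DNA methyltransferase Dnmt1. miR-200c-3p was at 20381, 662 and 13057 in IRI and at 2616, 2170 and 11663 in sham. miR-141-3p, its neighbour in the genome, was at 15585, 662 and 14636 in IRI and at 2616, 2170 and 10291 in sham. miR-429 was at 12708, 662 and 17374 in IRI and at 2616, 3798 and 6174 in sham. In each of these IRI rats 1 and 13 were high, and IRI rat 2 rested on 1 read. Sham rat 9 was high for miR-200c-3p and miR-141-3p. For miR-429 it was below IRI rats 1 and 13, with 9 reads beside 7 in sham rat 6.

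miR-148a-3p, from another chromosome region and family, was high and low in the same libraries as miR-200c-3p and miR-141-3p. It was at 27095, 1324 and 21691 in IRI and at 5231, 3255 and 40477 in sham. It had the second largest SD in sham (1.84), after miR-152-3p (1.97), which was at 2877, 0 and 2527 in IRI and at 0, 0 and 4802 in sham. The 5 miR-200 family members together took 10.4%, 2.32% and 11.3% of the reads in IRI rats 1, 2 and 13 and 2.16%, 2.74% and 7.93% in sham rats 3, 6 and 9. The 2 groups overlapped, and no member of the family differed between them at an unadjusted p under 0.05. Their differences ran from -0.15 (miR-200b-3p) to 0.89 (miR-200a-3p). The remaining miRNAs among the widest in sham were miR-9a-5p (1.75), miR-141-5p (1.72, at 0, 0 and 3430) and miR-93-5p (1.68).

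**Figure D4:**
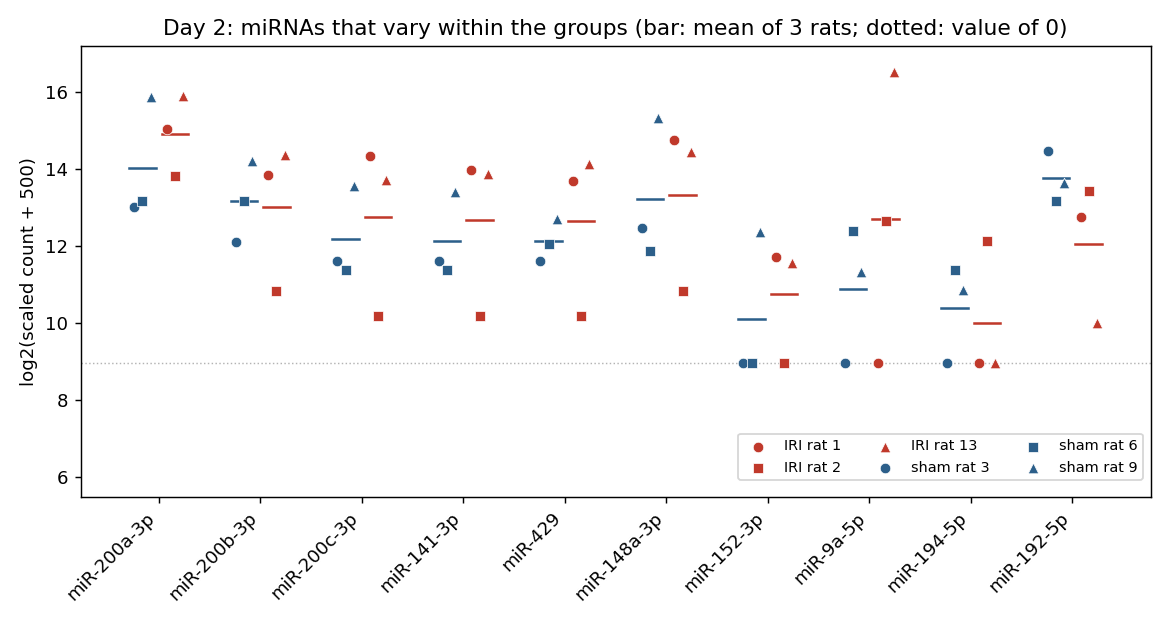
Scaled counts on a log2 scale (500 added) of 10 miRNAs in the 6 libraries, red IRI and blue sham, with bars at the means of 3 rats. The miR-200 family, miR-148a-3p and miR-152-3p were high in IRI rats 1 and 13 and lower in IRI rat 2 than in the other IRI rats. All of these but miR-429 were also high in sham rat 9. The group means of the miR-200 family differed by at most 0.89.

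The leading component of the variation left after removing group means, chosen for description after the values were seen, held 38.4% of it. IRI rats 1 and 13 and sham rat 9 lay on its positive side and IRI rat 2 and sham rats 3 and 6 on its negative side. Its largest weights were those of miR-148a-3p, miR-200c-3p, miR-141-3p and miR-152-3p, and at the other end miR-423-3p, miR-194-5p, miR-93-5p and miR-181a-5p. The positive side held the 3 libraries with the most reads, IRI rats 13 and 1 and sham rat 9, and both libraries of lane 4. Neither depth nor lane was tested for a part in it.

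Libraries of the same surgery were not nearer to each other throughout. Over the 86 miRNAs the distance between 2 libraries (Euclidean, log2 scale) ran from 14.4 to 15.9 within IRI, from 11.4 to 14.1 within sham and from 12.7 to 18.6 between the groups. IRI rat 2 with sham rat 6, and IRI rat 1 with sham rat 9, were nearer than any 2 IRI rats were to each other. The widest pair was IRI rat 13 and sham rat 3, the deepest and the shallowest library.

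On the other days the members are given side by side, since each daily table was scaled on its own and the rats are the same. miR-378a-3p was below sham without overlap on all 5 days, with differences of -1.32 at day 1, -2.55 at day 2, -2.31 at day 3, -1.16 at day 7 and -0.47 at day 14. Its adjusted p-values on those days, each in its own limma fit, were 0.223, 0.0863, 0.619, 0.781 and 0.697. At day 14 it was at 48569, 49709 and 46040 in IRI and at 62284, 70586 and 67520 in sham. It was the only one of the 14 named miRNAs with that record.

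miR-181b-5p did not keep its pattern. It was at 415, 2143 and 681 in IRI and 0, 4020 and 1873 in sham at day 1 (difference -0.30), was not listed at day 3, and had differences of -0.44 at day 7 and 1.38 at day 14. Sham rats 6 and 9, at 0 on day 2, were at 7536 and 5820 on day 7. miR-28-3p was below sham without overlap again at day 14, at 934, 1343 and 2762 in IRI and 5190, 3283 and 5871 in sham. Its adjusted p there was 0.294 (limma), and IRI rats 1 and 2 were each at the worth of 1 read. miR-182 was also below sham without overlap at day 14, at 0, 2687 and 1842 against 14273, 11491 and 7339. Its difference was -2.85 (standard error 0.77, adjusted p = 0.146, limma). miR-29c-3p had a difference of 2.17 at day 1 and 0.46 at day 14, with overlapping groups, and was not listed at days 3 and 7. miR-9a-5p was at 7410, 2829 and 7183 in IRI and 0 in all sham rats at day 3 (adjusted p = 0.0392, limma). Its 3 IRI libraries alone brought it into the day 3 listing. A value of 0 at day 3 allows up to 8705 in sham rat 9, above every IRI value. At day 1 the groups of miR-9a-5p overlapped. The numbers of miRNAs without overlap, higher and lower, were 18 and 4 at day 1, 1 and 10 at day 2, 5 and 3 at day 3, 7 and 2 at day 7 and 9 and 9 at day 14, of 110, 86, 72, 68 and 79 listed. At day 1 the IRI libraries held 11165 to 50705 reads and the sham libraries 935 to 2125. The counts of the other days were not repeated with other scalings, and differences between days were not tested. The miRNAs listed at day 2 alone were miR-148a-5p, miR-184, miR-339-5p and miR-664-2-5p, and the groups overlapped for all 4.

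**Figure D5:**
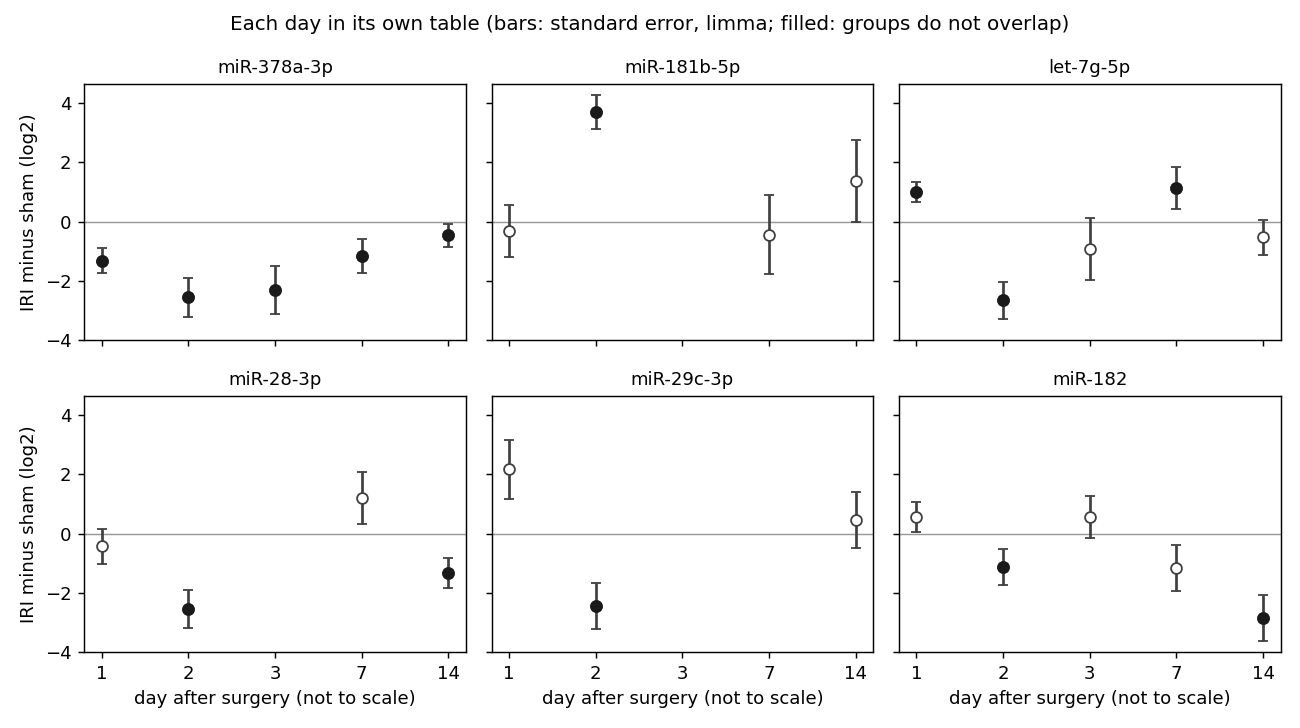
IRI minus sham (log2, 500 added) of 6 miRNAs on each day, in separate fits to each daily table, with limma standard errors; filled points mark groups that did not overlap, and days without a point are days on which the miRNA was not listed. miR-378a-3p was below 0 and filled on all 5 days, while let-7g-5p was filled above 0 at days 1 and 7 and below 0 at day 2. At day 7 let-7g-5p was at the worth of 1 read or at 0 in every library but IRI rat 13.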

How the data were processed

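Urinary exosome miRNA was sequenced in 3 IRI and 3 sham rats at each of 5 days. Per the labels and methods, the authors trimmed reads with Cutadapt, aligned them with Bowtie and the miRDeep2 mapper to rat genome version 5 and counted them with HTSeq; tool versions are not given in the sources used here. The deposited signal values come from those counts after scaling by the authors (method not given in the sources used here) to roughly CPM size. The deposited tables also hold the authors' edgeR results, namely log2 fold changes and mean levels, a likelihood ratio score, and p-values with false discovery rates, and none of these were used.

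The worth of 1 read was taken from the steps between low values. log2(value + 500) was fitted with limma 3.58.1 in R 4.3.3 with no covariates, on the 6 libraries of day 2, with Benjamini-Hochberg adjustment over the 86 miRNAs and no further filter. The threshold was 0.05. The test was checked on simulated libraries with the same spread beyond counting for every miRNA, fixed scaling, no lane effect and no listing rule. The check does not cover miRNAs of wider spread or those listed through a single group. An exact test of 3 against 3 cannot go below p = 0.1. Intervals and limits cover counting error only. Reads without molecular identifiers in the deposited values are not independent molecules. Each rat gave 1 library per group and day.

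The miRNAs named were those at an unadjusted p under 0.05 or without overlap, the 10 most abundant, the 5 of widest spread in each group, and examples from lists. The members and lists were chosen with earlier results of these data known. The fits were repeated with 50, 2000 or 0.5 read added in place of 500, with a filter, 2 scalings, an intensity trend, limma voom on recovered reads, a lane term and leaving out each rat.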

Additional observations from a re-analysis of the deposited data

Results flagged for a closer look

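let-7g-5p was lower in IRI at day 2, with all 3 IRI values (0, 0 and 316) below all 3 sham values (2616, 5968 and 2058). It was higher in IRI at day 1, with 6686, 4746 and 3475 against 2188, 2412 and 1873 (log2 difference 1.004). The adjusted p was 0.0863 at day 2 and 0.233 at day 1 (limma). At day 1 a read was worth 729, 402 and 936 in sham rats 3, 6 and 9. At day 7 all 3 IRI values (2031, 1986 and 2398) were again above sham (0, 1256 and 1455), a difference of 1.136 (adjusted p = 0.781, limma). The day 7 values of IRI rats 1 and 2 and sham rats 6 and 9 were each the worth of 1 read. The 0 in sham rat 3 allows up to 11977 at day 7, so these groups are not told apart by counting. let-7b-5p was lower without overlap at day 2 and higher without overlap at day 14, at 141972, 99418 and 120626 against 81747, 79889 and 95408, a difference of 0.4811. Its adjusted p was 0.685 at day 2 and 0.697 at day 14 (limma). In these 3 cases every rat of a group lay on opposite sides on the 2 days. The differences between days were not tested, since each daily table was scaled on its own.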

How the results depend on the processing

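The count of called miRNAs was 1, and it was 2 with a constant of 2000 or with an intensity trend (miR-181b-5p and miR-378a-3p), 2 with a constant of 0.5 read (miR-181b-5p and let-7g-5p), and 0 with a lane term or among the 56 miRNAs above 0 in at least 5 libraries, a filter that drops miR-181b-5p. Those fits had 11 and 3 miRNAs at an unadjusted p under 0.05. Leaving out each rat gave 0 to 1 called. With limma voom on recovered reads 1 was called, miR-378a-3p (adjusted p = 0.0236), and miR-181b-5p had 0.0938. miR-181b-5p passed in 9 of 14 alternatives. At an unadjusted p under 0.05 the count of 9 became 3 with that filter. The count of 11 without overlap became 7 with that filter, all lower, and 16 to 22 on leaving out a rat. That leaves 2 against 3 libraries, which separate more easily, so the rise is not credited to single rats. The lean to lower values was least without IRI rat 2, with 11 lower and 10 higher. The median SD in sham was 0.468 to 0.881 on leaving out a sham rat. miR-29b-3p turned to 0.8488 with a lane term, which leaves a single lane with both groups. Of 204 values of the 14 named miRNAs 194 kept direction and side of the threshold, 5 lost it, 4 gained it and 1 reversed. Only miR-181b-5p of the 14 passed in the main fit, and the 5 lost values were all its own. For the others, keeping side meant staying not called. The causes were not tested. The median difference moved from 0.11 to 0.26 with equal totals and to -0.25 with voom. No paired analysis was possible because the IRI and sham groups share no rat number. Depth limits the rare miRNAs most, since 1 read in sham rat 3 is worth 1308.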
